A study of Mus musculus with 15 samples.

Results

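The 8 genes followed here encode acute-phase proteins or belong to the serpin A3 cluster, and were measured in mouse bone marrow-derived macrophages (BMDMs) given cytokines. They were chosen by name as Serpina3f, Serpina3g, Serpina3n, Saa3, Hp, Orm1, Lbp and Slpi, which are 8 of the 53465 genes in the count matrix. BMDMs had grown from bone marrow for 7 days with M-CSF at 20 ng/ml and were then kept for 24 h without a further cytokine (control), with IL-4 at 10 ng/ml (IL-4), with IL-4 at 10 ng/ml and IL-6 at 40 ng/ml (IL-4+IL-6), with IL-13 at 40 ng/ml (IL-13), or with IL-13 and IL-6 at 40 ng/ml each (IL-6+IL-13). Each of the 5 groups had 3 RNA-seq libraries, and no group received IL-6 alone. The doses of IL-4 and IL-13 differed, so a difference between a group with IL-4 and one with IL-13 includes the dose. The labels give no strain or genotype, and the study's methods describe mononuclear cells of the marrow as the starting material. Bone marrow cultures of this kind are not sorted, and the labels do not say whether the replicates came from separate animals or cultures. The study calls the RNA-seq samples biological replicates and states in general that its data come from independent experiments, without saying what was separate for these libraries. The p-values are therefore read against the spread between replicate libraries, which the fit estimated jointly over the 5 groups. That spread was unequal, with a biological coefficient of variation of 4.48% in control, 4.54% in IL-4, 14.8% in IL-4+IL-6, 10.9% in IL-13 and 7.38% in IL-6+IL-13.

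Acute-phase proteins are plasma proteins whose production changes during inflammation. The liver makes most of them, and IL-6 is the classical signal, acting through gp130 and the transcription factor STAT3 together with C/EBP factors. Serum amyloid A proteins, haptoglobin, orosomucoid and LPS-binding protein are of this kind, and macrophages and neutrophils can make some of them outside the liver. Serpins are protease inhibitors that trap their target with an exposed loop. Humans have a single SERPINA3 gene, whereas the mouse holds a cluster of copies with differing loops. Slpi is another protease inhibitor of secretions and of neutrophils, built from whey acidic protein domains.

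The 15 libraries held between 17001352 and 18918686 counts. The 8 macrophage markers examined (among them Adgre1, Csf1r, Cd68 and Lyz2) were expressed in every group, with summed levels between 10900 and 21100 CPM (counts scaled to library size with TMM factors). The control libraries stood apart, because they also carried markers of other cells. The summed level of 14 granulocyte and precursor markers was 690.0 to 792 CPM in control, and 63.0 to 69.5 in IL-4 alone, 127 to 148 in IL-4+IL-6, 49.5 to 54.0 in IL-13 and 64.7 to 75.5 in IL-6+IL-13. What remained in the cytokine groups was mostly Csf3r (27.7 to 124 CPM) and Mmp8 (10.3 to 23.9 CPM), while Ltf and S100a9, at 81.8 and 156 CPM in control, averaged at most 0.109 CPM in any cytokine group. Of the 14 markers, 0 were at 0 counts in control, 4 in IL-4, 5 in IL-4+IL-6, 2 in IL-13 and 4 in IL-6+IL-13. The 8 stromal markers summed to 17.5 to 22.0 CPM in control and to at most 0.482 CPM in any cytokine library, with Col1a1, Col3a1 and Col5a1 at 0 in all of these. In RNA of whole cultures, fewer cells of a type and less RNA per cell cannot be told apart. Of 6 hepatocyte markers 5, Alb and Ttr among them, were at 0 counts in every group, and Apoa2 averaged at most 0.413 CPM.

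A gene was tested if it reached about 10 counts in at least 3 libraries, which 6 of the 8 genes did, and Serpina3f and Orm1 did not. Changes were tested with edgeR's quasi-likelihood test on all 13938 such genes with Benjamini-Hochberg adjustment, and a gene was called at an adjusted p under 0.05. Log2 fold changes are given with their standard error (SE). When IL-6 was added to IL-4, Serpina3g and Serpina3n rose and no gene of the 8 fell. These are 2 of 6 tested genes, next to 20.7% of all tested genes called higher and 18.7% called lower in that comparison (39.4% in all; 52.6% of all calls were higher, and 39% with upper-quartile scaling factors). When IL-6 was added to IL-13, Serpina3g, Saa3 and Hp rose and none fell, which are 3 of 6, next to 12.1% of all genes called higher and 13.5% called lower (25.6% in all). For the 0 genes of the 6 called lower by edgeR in either comparison, 0 had a negative change at an unadjusted p under 0.05 and DESeq2 called 0. The median log2 fold change of the 6 was 0.87 with IL-4 and 0.76 with IL-13, against 0.038 and 0.005 over all tested genes. Serpina3n was tested only because it was high in IL-4+IL-6, so it had to differ there, and these counts describe the genes without being evidence for them as a group. Both counts stayed at 2 and 3 in a fit without the control libraries.

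**Figure D1:**
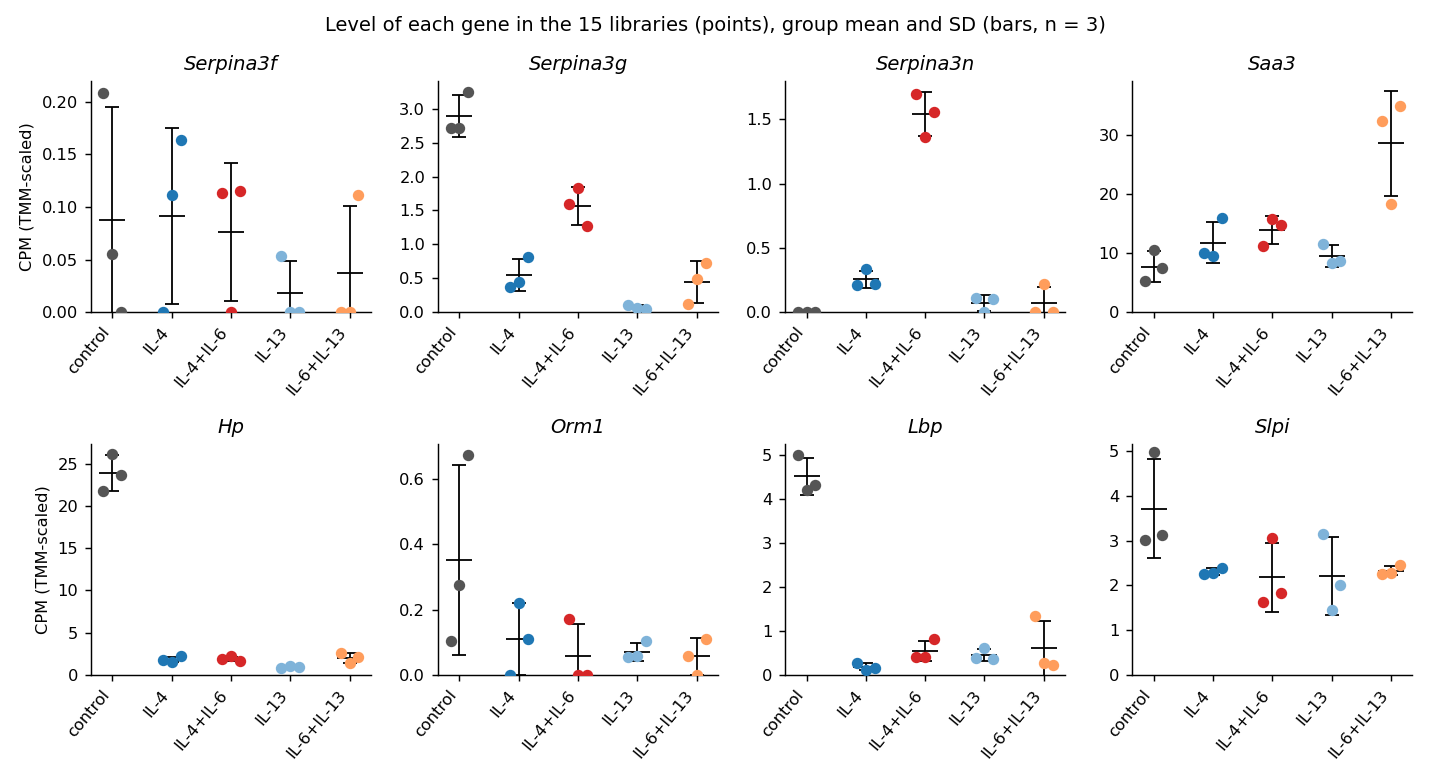
Level of each of the 8 genes in every library, in TMM-scaled CPM on a linear axis from 0. Points are libraries, the wide bar is the group mean and the whisker the SD of n = 3. Hp and Lbp were high in control and low in all 4 cytokine groups, Serpina3n was highest in IL-4+IL-6 and Saa3 in IL-6+IL-13.

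**Figure D2:**
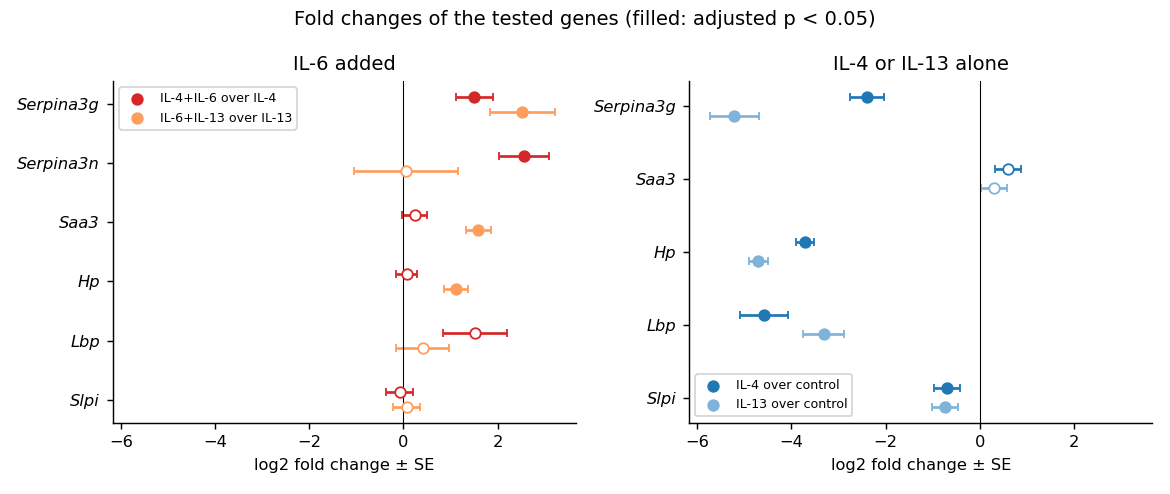
Log2 fold changes with SE of the tested genes when IL-6 was added (left) and in IL-4 or IL-13 alone over control (right). Filled points have an adjusted p under 0.05. Serpina3n is left out on the right, because control held no count of it. With IL-6, the point of Serpina3g is filled in both comparisons, that of Serpina3n with IL-4, and those of Saa3 and Hp with IL-13.

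Serpina3n, usually taken as the mouse counterpart of human antichymotrypsin, lies at chr12:104406729-104414329 on the plus strand (GRCm38, gene model of GENCODE). Its counts were 0, 0 and 0 in control, 4, 6 and 4 in IL-4 alone, 30, 23 and 27 in IL-4+IL-6, 2, 0 and 2 in IL-13, and 0, 4 and 0 in IL-6+IL-13. Only the IL-4+IL-6 libraries held more than 6 counts, and they did not overlap with any other group. The level in IL-4+IL-6 was 1.54 ± 0.174 CPM (SD, n = 3), against 0.255 ± 0.067 CPM in IL-4, a fitted log2 fold change of 2.56 ± 0.527 (SE). The filter on low counts was passed through IL-4+IL-6 alone, so the p-values of the filtered fit are no support for differences from that group. In the edgeR fit without the filter, over all 25254 genes with a count, the log2 fold change was 2.54 and was called (adjusted p = 0.000139). The ratio of the summed counts, 80 to 14, was 6.06, with an exact 95% interval of 3.41 to 11.6 that covers counting error only. Against control, whose limit is taken as 3 counts over the group, IL-4 libraries exceeded it at least 4.67-fold and those of IL-4+IL-6 at least 28.3-fold, and both differences were called in the fit without the filter (adjusted p = 0.00052 and 1.46e-12). With IL-13, adding IL-6 left 4 counts in each group, a ratio of 1.04 with an interval of 0.194 to 5.58, so that an IL-6 effect of up to 5.58-fold there is within counting error. The difference between the IL-6 effects with IL-13 and with IL-4 was -2.51 ± 1.36 on the log2 scale and was not called (adjusted p = 0.37). It ranged from -6.06 to -1.96 when 1 library was left out, the first value without IL-6+IL-13 replicate 2, which held all 4 counts of its group (adjusted p = 0.0585). Adipoq, 1 of 5 adipocyte markers and the 1 that was tested, had a like pattern, with 1, 2 and 0 counts in control, 6, 4 and 2 with IL-4 alone, 12, 19 and 12 in IL-4+IL-6, 2, 0 and 2 in IL-13, and 1, 1 and 0 in IL-6+IL-13. Like Serpina3n it was tested only because it was high in IL-4+IL-6, so that its fitted log2 fold change for IL-6 with IL-4, 1.90 ± 0.534, is given as a description. The 5 adipocyte markers summed to 0.68 to 1.12 CPM in IL-4+IL-6, where 4 of them were at 0, and to at most 0.375 CPM elsewhere, and their part in the Serpina3n result was not tested. In direct comparison IL-4+IL-6 was above IL-6+IL-13 by 20.7-fold in the ratio of counts (interval 7.76 to 77.7), which is given as a description, and these groups differ in the partner cytokine and its dose.

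Serpina3g, known as Spi2A and as an inhibitor of cysteine cathepsins inside cells, lies at chr12:104236245-104241939 on the plus strand. Its level was 2.71, 2.72 and 3.25 CPM in control, 0.375, 0.443 and 0.819 in IL-4 alone, 1.59, 1.83 and 1.27 in IL-4+IL-6, 0.107, 0.0563 and 0.0515 in IL-13, and 0.116, 0.488 and 0.723 in IL-6+IL-13. Control was above all other groups without overlap, and each group with IL-6 lay above its partner without IL-6, although the lowest IL-6+IL-13 library and the highest IL-13 library both held 2 counts. Serpina3g fell with log2 fold changes over control of -2.39 ± 0.367 in IL-4 (adjusted p = 2.09e-05) and -5.21 ± 0.519 in IL-13 (adjusted p = 1.77e-07). With IL-6 it rose, and the log2 fold change was 1.51 ± 0.391 with IL-4 (adjusted p = 0.00512) and 2.53 ± 0.695 with IL-13 (adjusted p = 0.0116). The IL-13 group held 2, 1 and 1 counts, and the ratio of the summed counts, 24 to 4, was 6.24 with an exact interval of 2.14 to 24.7. The IL-13 call was lost without IL-6+IL-13 replicate 3 (log2 fold change 1.99, adjusted p = 0.0796, against 0.0014 to 0.0796 over all alternatives). The IL-6 effects with IL-13 and IL-4 differed by 1.02 ± 0.815, which was not called (adjusted p = 0.601). With IL-6 the level stayed under control, with log2 fold changes over control of -0.89 ± 0.319 with IL-4 (adjusted p = 0.0193) and -2.68 ± 0.381 with IL-13 (adjusted p = 9.69e-06). The first of these was lost without control replicate 3 (log2 fold change -0.80, adjusted p = 0.0668) or without IL-4+IL-6 replicate 3 (-0.76, adjusted p = 0.0646), against 0.0069 to 0.0668 over all alternatives. In the order control, IL-4+IL-6, IL-4, IL-6+IL-13, IL-13, every neighbouring pair differed except IL-4 and IL-6+IL-13 (log2 difference -0.29 ± 0.471, adjusted p = 0.697). Markers of other cells moved with this order in part. The summed level of 5 dendritic cell markers had a median of 14.5 CPM in control (range 14.3 to 17), 11.7 in IL-4+IL-6 (10.8 to 13.5), 2.55 in IL-6+IL-13 (2.28 to 2.84), 0.554 with only IL-4 (0.535 to 0.709) and 0.482 in IL-13 (0.169 to 0.67), with 0 to 2 of the 5 markers at 0 in a group. Unlike Serpina3g, this sum was higher in IL-6+IL-13 than in IL-4 without overlap. In the groups with IL-6 most of it was Cd209a, and Flt3 was at 0 counts in IL-4+IL-6. The sum of the 14 granulocyte markers, given above, was also highest in control and second in IL-4+IL-6, through Csf3r. Without Csf3r it was 525 to 619 CPM in control, 25.5 to 26.9 in IL-4, 21.7 to 24.9 in IL-13, 13.2 to 13.6 in IL-6+IL-13 and 11.7 to 12.3 in IL-4+IL-6, which was then the lowest. Most of this in the cytokine groups was the single marker Mmp8, at 23.9 CPM in IL-4, 20.9 in IL-13, 11.1 in IL-6+IL-13 and 10.3 in IL-4+IL-6. The part of these cells in the Serpina3g result was not tested.

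Serpina3f, at chr12:104214544-104221129 on the plus strand, had 4, 1 and 0 counts in control, 0, 2 and 3 in IL-4 alone, 2, 0 and 2 in IL-4+IL-6, 1, 0 and 0 in IL-13, and 0, 0 and 2 in IL-6+IL-13. It was at the limit of detection in all groups, which overlapped, and no difference was detectable at this depth. The reference holds 11 serpin A3 genes and transcribed copies that were examined, of which 3 were tested. The third was Serpina3b, next to Serpina3a, which went from 148, 116 and 110 counts in control to between 0 and 5 counts in every cytokine library. It was tested only because control was high, so its fall had to follow, and the fitted log2 fold changes of -6.12 ± 0.521 in IL-4 and -7.31 ± 0.595 in IL-13 are a description. IL-6 did not bring a call for it with IL-4 (log2 fold change 0.33 ± 1.02, adjusted p = 0.833) or with IL-13 (1.23 ± 1.26, adjusted p = 0.543). Serpina3i was too low to be tested and had 7, 2 and 6 counts in IL-4+IL-6, 2, 3 and 1 in IL-4, 0, 0 and 1 in control and 0 in all 6 libraries with IL-13. Adding IL-6 to IL-4 gave it a ratio of summed counts of 2.65 (exact interval 0.971 to 8.33). The copies resemble each other, and how reads that match several of them were counted is not given in the sources used here. Of the 50-base windows of the Serpina3g transcript, 8.67% occur unchanged in Serpina3h, 6.67% in Serpina3f, 6.1% in Serpina3i and 2.91% in Serpina3n. For Serpina3n the shares were 2.53% in Serpina3g and 1.04% in Serpina3f, so most windows of both were not shared with the other copies compared, and the low counts of Serpina3f and Serpina3i remain uncertain.

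**Figure D3:**
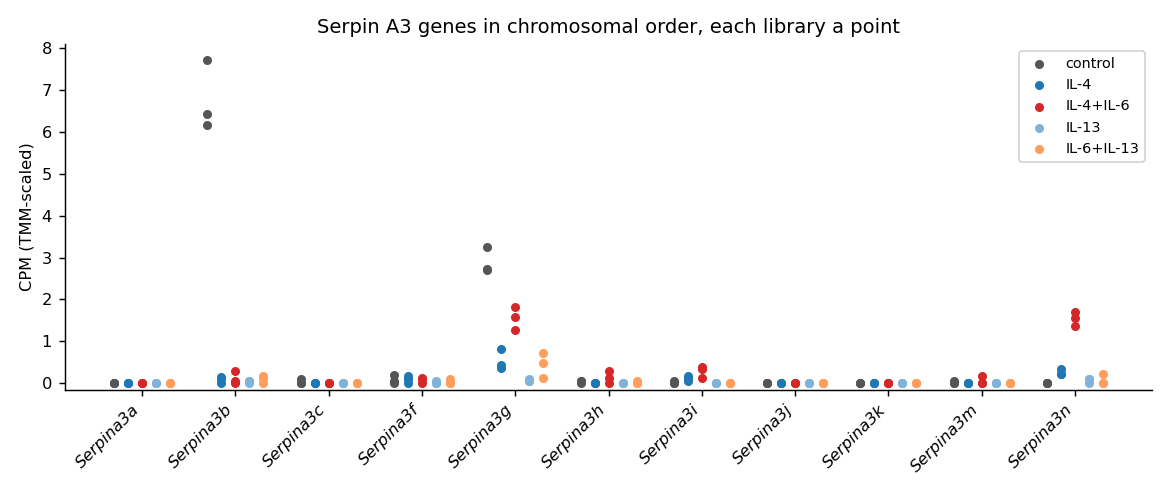
Level of 11 serpin A3 genes in the order in which they lie on chromosome 12, in TMM-scaled CPM with each library a point and the groups in colours. Serpina3b and Serpina3g were highest in control and Serpina3n in IL-4+IL-6, and the other genes were at most 0.397 CPM in any library.

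The sequences before the start of these serpin genes are shown because neighbouring copies differed in their levels across the same libraries. RefSeq promoter windows on GRCm38.p6 were found for 5 of the 8 genes, and none was found for Hp, Orm1 and Lbp. The motifs searched on both strands were the STAT motif TTCNNNGAA, its variant with 1 more base in the centre (the STAT6 form) and the C/EBP-like motif TTNNGNAA, where N is any base, and they occur in 7.02%, 5.85% and 36.8% of the 32851 windows of 250 bases before a gene start. Capitals mark every match to any of the 3. The windows lie at chr12:104235897-104236146 for Serpina3g, chr12:104406458-104406707 for Serpina3n and chr12:104214294-104214543 for Serpina3f, all on the plus strand.
Serpina3g: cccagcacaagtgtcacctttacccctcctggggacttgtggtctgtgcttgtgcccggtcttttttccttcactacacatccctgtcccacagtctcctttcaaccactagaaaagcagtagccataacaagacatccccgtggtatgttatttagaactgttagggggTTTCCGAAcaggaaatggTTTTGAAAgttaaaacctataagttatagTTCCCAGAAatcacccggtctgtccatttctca
Serpina3n: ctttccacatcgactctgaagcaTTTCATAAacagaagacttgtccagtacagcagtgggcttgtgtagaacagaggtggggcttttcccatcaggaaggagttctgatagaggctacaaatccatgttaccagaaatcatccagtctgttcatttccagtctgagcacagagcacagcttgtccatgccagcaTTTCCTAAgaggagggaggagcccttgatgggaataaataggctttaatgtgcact
Serpina3f: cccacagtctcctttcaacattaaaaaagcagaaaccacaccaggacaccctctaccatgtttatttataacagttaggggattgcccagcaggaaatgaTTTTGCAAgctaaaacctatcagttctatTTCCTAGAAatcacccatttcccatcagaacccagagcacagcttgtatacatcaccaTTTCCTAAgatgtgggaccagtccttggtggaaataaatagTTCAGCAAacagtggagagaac
Serpina3g held TTCNNNGAA from base -33 to -25 before its start, and Serpina3f from -121 to -113, while the letters were not in the windows of Serpina3n and Serpina3b. The window of Serpina3i, which is not printed, held them from -102 to -94, and also the STAT6 form from -34 to -25, which was in none of the other 4 serpin windows. Each of the 3 printed windows held TTNNGNAA, with 2 matches in Serpina3g, 2 in Serpina3n and 3 in Serpina3f. Serpina3g and Serpina3f were 81.0% identical over 147 aligned bases and Serpina3g and Serpina3n 64.2% over 162. A match describes letters only.

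Saa3 encodes the serum amyloid A protein that mouse macrophages and fat cells make outside the liver. It lies at chr7:46711998-46715700 on the minus strand. Its level was 5.26, 10.5 and 7.46 CPM in control, 10.0, 9.52 and 15.9 in IL-4 alone, 11.3, 15.8 and 14.8 in IL-4+IL-6, 11.6, 8.33 and 8.60 in IL-13, and 32.5, 18.4 and 35.0 in IL-6+IL-13. All IL-6+IL-13 libraries were above all others, and the other 4 groups overlapped with their neighbours in the order of their means. Adding IL-6 to IL-13 raised Saa3 by a log2 fold change of 1.59 ± 0.261 (adjusted p = 0.000158), from 9.50 ± 1.79 to 28.6 ± 8.96 CPM (SD, n = 3), a call that held under every alternative. Adding IL-6 to IL-4 gave 0.24 ± 0.264 (adjusted p = 0.504). The difference between these IL-6 effects was 1.35 ± 0.37 and was called (adjusted p = 0.0324), as for 4.42% of all genes in that direction and 3.22% in the other (7.64% in all), and Saa3 was the 1 gene of the 6 to be called. That call was lost when any of 6 libraries was left out (IL-4 replicate 3, IL-4+IL-6 replicate 1, IL-13 replicates 2 and 3, and IL-6+IL-13 replicates 1 and 3), with a log2 difference of 1.08 to 1.28 and adjusted p from 0.0764 to 0.11. Saa3 was also above control in IL-6+IL-13 (1.89 ± 0.266, adjusted p = 9.05e-06) and in IL-4+IL-6 (0.85 ± 0.274, adjusted p = 0.0102), the latter not without control replicate 1 (0.63, adjusted p = 0.0629, the largest over the alternatives). In IL-4 alone the log2 fold change of 0.61 ± 0.276 missed the threshold (adjusted p = 0.0599) and passed it with DESeq2 (adjusted p = 0.0372), without a filter, in a fit of control and the 2 groups with IL-4, and when any of 9 libraries was left out (adjusted p = 0.0153 to 0.0486), against a largest value of 0.262 over the alternatives. IL-13 alone gave 0.30 ± 0.28 (adjusted p = 0.373), and 0.36 without a filter, where it was called (adjusted p = 0.0386, against 0.0386 to 0.821 over the alternatives). The mean level of Saa3 was lowest in control, which overlapped with IL-4 and IL-13. The sum of the granulocyte markers was higher in IL-6+IL-13 than in IL-13 (64.7 to 75.5 against 49.5 to 54.0 CPM), as Saa3 was, through Csf3r, and without Csf3r it was lower (13.2 to 13.6 against 21.7 to 24.9 CPM). Most of that remainder was the single marker Mmp8, with a mean of 11.1 CPM in IL-6+IL-13 and 20.9 CPM in IL-13. Between IL-4 and IL-4+IL-6, where Saa3 was not called, the whole sum went from 63.0 to 69.5 up to 127 to 148 CPM. The part of these cells in the result was not tested.

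The window before the Saa3 start is shown because Saa3 was the gene of the 6 with a called difference between the IL-6 effects. It covers chr7:46715701-46715926 on the minus strand, and its 226 bases end at base -25 before the RefSeq start.
Saa3: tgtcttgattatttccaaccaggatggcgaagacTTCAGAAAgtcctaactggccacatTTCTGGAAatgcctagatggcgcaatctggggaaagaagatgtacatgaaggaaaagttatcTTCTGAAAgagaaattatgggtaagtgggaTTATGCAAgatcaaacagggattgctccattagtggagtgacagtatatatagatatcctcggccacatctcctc
It held 4 matches to TTNNGNAA, of which the nearest to the start reads TTATGCAA, and no match to either STAT motif.

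Hp encodes haptoglobin, which binds free hemoglobin and is stored in neutrophil granules besides being made in liver. It lies at chr8:109575128-109579172 on the minus strand. Its level was 21.8, 26.1 and 23.7 CPM in control, 1.77, 1.49 and 2.18 in IL-4 alone, 1.87, 2.18 and 1.67 in IL-4+IL-6, 0.803, 1.07 and 0.876 in IL-13, and 2.55, 1.36 and 2.06 in IL-6+IL-13. Every control library was far above every cytokine library, and every IL-13 library was below all others. Hp fell with log2 fold changes of -3.71 ± 0.183 in IL-4 (adjusted p = 1.5e-11) and -4.70 ± 0.202 in IL-13 (adjusted p = 4.75e-12). IL-6 raised it with IL-13 by a log2 fold change of 1.11 ± 0.254 (adjusted p = 0.00318), which held under every alternative, and gave 0.07 ± 0.228 with IL-4 (adjusted p = 0.84). The difference between the IL-6 effects, 1.04 ± 0.343, was not called (adjusted p = 0.0819), and it was called without IL-6+IL-13 replicate 2 (1.26, adjusted p = 0.0207). With IL-6 the level remained below control, with log2 fold changes of -3.64 ± 0.183 in IL-4+IL-6 (adjusted p = 1.08e-11) and -3.59 ± 0.181 in IL-6+IL-13 (adjusted p = 1.89e-11). The 3 groups IL-4, IL-4+IL-6 and IL-6+IL-13 were not called different (log2 differences 0.05 to 0.12, adjusted p = 0.729 to 0.886), and the log2 difference of IL-13 from IL-4 was -0.98 ± 0.256 (adjusted p = 0.0164).

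Lbp encodes the plasma protein that hands LPS to CD14 and TLR4. It lies at chr2:158306493-158332852 on the plus strand. Its level was 5.0, 4.21 and 4.32 CPM in control, 0.268, 0.111 and 0.164 in IL-4 alone, 0.397, 0.412 and 0.806 in IL-4+IL-6, 0.375, 0.619 and 0.361 in IL-13, and 1.33, 0.271 and 0.223 in IL-6+IL-13. Control was above all other libraries, and the cytokine libraries held between 2 and 23 counts. Lbp fell with log2 fold changes of -4.58 ± 0.511 in IL-4 (adjusted p = 5.27e-07) and -3.31 ± 0.438 in IL-13 (adjusted p = 5.16e-06), and in the groups with IL-6 the log2 fold changes over control were -3.05 ± 0.431 with IL-4 and -2.90 ± 0.421 with IL-13 (adjusted p = 6.62e-06 and 1.24e-05). The value for IL-6+IL-13 ranged from -4.12 to -2.48 when 1 library was left out. Adding IL-6 to IL-4 gave 1.53 ± 0.682, which was not called (adjusted p = 0.0857), although all 3 libraries were above all IL-4 libraries. It was called with DESeq2 (1.57, adjusted p = 0.0483), without a filter (1.51, adjusted p = 0.0326), in a fit of control and the 2 groups with IL-4 (1.5, adjusted p = 0.0283) and without IL-6+IL-13 replicate 1 (1.51, adjusted p = 0.0186). Adding IL-6 to IL-13 gave 0.41 ± 0.558 (adjusted p = 0.661), a value set by replicate 1 of IL-6+IL-13 with its 23 counts: without it the log2 fold change was -0.85 (adjusted p = 0.297).

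Orm1, which encodes the acute-phase glycoprotein orosomucoid, lies at chr4:63344560-63348163 on the plus strand. It had 2, 5 and 12 counts in control, 0, 4 and 2 in IL-4 alone, 3, 0 and 0 in IL-4+IL-6, 1, 1 and 2 in IL-13, and 1, 0 and 2 in IL-6+IL-13. The groups overlapped, and control had the highest sum with 19 counts. Without a filter on low counts IL-4+IL-6 against control gave a log2 fold change of -2.42 ± 1.12 (adjusted p = 0.0695) and IL-6+IL-13 against control one of -2.43 ± 1.12 (adjusted p = 0.0743), and no Orm1 difference was called.

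Slpi, the secretory leukocyte protease inhibitor, blocks neutrophil elastase and cathepsin G. It lies at chr2:164354070-164389095 on the minus strand, where its model shares an exon with a microRNA gene of the same strand. Its level was 3.02, 4.99 and 3.14 CPM in control, 2.25, 2.27 and 2.40 in IL-4 alone, 1.64, 3.06 and 1.84 in IL-4+IL-6, 3.16, 1.46 and 2.01 in IL-13, and 2.26, 2.28 and 2.45 in IL-6+IL-13. The cytokine groups overlapped with each other, and control overlapped with IL-4+IL-6 and IL-13. Slpi was called lower than control in all 4 groups, with log2 fold changes of -0.69 ± 0.275 in IL-4, -0.74 ± 0.276 in IL-13, -0.77 ± 0.279 in IL-4+IL-6 and -0.67 ± 0.276 in IL-6+IL-13 (adjusted p = 0.036, 0.0284, 0.0209 and 0.042). Each call was lost without control replicate 2, with log2 fold changes of -0.41, -0.46, -0.50 and -0.40 (adjusted p = 0.233, 0.191, 0.14 and 0.249, the largest over the alternatives). In IL-4 it was also lost without each IL-4 library and without IL-6+IL-13 replicate 1 or 3 (adjusted p = 0.0549 to 0.0988), in IL-13 without IL-13 replicate 2 or 3 (0.138 and 0.0907), and in IL-4+IL-6 without IL-4+IL-6 replicate 1 or 3 (0.102 and 0.0649). In IL-6+IL-13 it was lost without each IL-4 library, without IL-13 replicate 3 and without each IL-6+IL-13 library (adjusted p = 0.0509 to 0.107). Adding IL-6 gave -0.08 ± 0.294 with IL-4 (adjusted p = 0.855) and 0.07 ± 0.291 with IL-13 (adjusted p = 0.903). The ratios of summed counts were 0.943 (exact interval 0.725 to 1.22) and 1.05 (0.811 to 1.35).

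Against control, then, 1 of the 6 tested genes was called higher and 4 lower in IL-4, next to 32.1% and 35.9% of all genes (68% in all), and 0 higher and 4 lower in IL-13, next to 29% and 31.1% (60.1% in all). In the IL-4+IL-6 group 2 were higher and 4 lower (35.4% and 37.5% of all genes, 72.9% in all), and in the IL-6+IL-13 group 1 was higher and 4 lower (31.9% and 32.1%, 64% in all). These 4 comparisons share the control libraries. The median log2 fold change of the 6 was -1.54 in IL-4, -2.02 in IL-13, -0.83 in IL-4+IL-6 and -1.68 in IL-6+IL-13, also with Serpina3n at its bound, and that of all genes lay between -0.048 and -0.007. For the 0 genes called higher in IL-13 with edgeR, the smallest p of a positive change was that of Serpina3n (log2 fold change 3.51 ± 1.74, unadjusted p = 0.0629, with 4 counts in IL-13), so that 0 passed an unadjusted p of 0.05 as well, and DESeq2 also called 0. Without a filter on low counts 1 was called, which was Saa3 (log2 fold change 0.36, adjusted p = 0.0386). The 4 genes that were lower, Serpina3g, Hp, Lbp and Slpi, fell in the same comparisons in which 12 of 13 tested granulocyte markers fell in IL-4 and in IL-13 and 13 of 13 fell in both groups with IL-6, and all 4 tested stromal markers in each. The 4 stromal markers and most of the granulocyte markers were tested only through the control libraries, so that their falls were fixed by the filter on low counts. The part of those cells in the falls was not tested. In the comparisons of IL-6, 39.4% of all genes were called in either direction with IL-4 and 25.6% with IL-13. Beside these shares, 10 of the 13 granulocyte markers were not called in either case, Csf3r rose (1.60 ± 0.087 with IL-4 and 1.05 ± 0.089 with IL-13) and Cxcr2 and Mmp8 fell. Of 4 tested dendritic cell markers 1 rose with IL-6 in both cases and 3 were not called. This was Cd209a, a lectin receptor, which had 0, 0 and 3 counts with only IL-4 and 194, 178 and 217 in IL-4+IL-6 (log2 fold change 7.53 ± 0.399, adjusted p = 5.86e-10), and 0 counts in IL-13 and 36, 34 and 45 in IL-6+IL-13 (adjusted p = 4.28e-07). Of 8 macrophage markers 3 rose and 5 fell with IL-4, next to 20.7% of all genes called higher and 18.7% lower. With IL-13, 3 rose and 2 fell, next to 12.1% and 13.5%. Cd14, with the largest change of the 8 when IL-6 was added to IL-4, fell there (log2 fold change -1.12, adjusted p = 1.79e-08). It gave -0.19 with IL-13 (adjusted p = 0.123). Fcgr1, an Fc receptor, rose in both (1.10 and 1.35, adjusted p = 4.33e-08 and 6.39e-09), as did Adgre1 (0.54 and 0.63, adjusted p = 1.12e-06 and 3.53e-07). Mertk, a receptor for dying cells, rose with IL-4 (0.62, adjusted p = 0.00616) and gave 0.30 with IL-13 (adjusted p = 0.164). The part of these cells in the IL-6 changes of the 8 genes was not tested. Among the 14 granulocyte markers, Elane, Ltf and Ngp averaged at most 0.237 CPM in the 4 cytokine groups. Others stayed higher there, with means of 0.288 to 0.58 CPM for Prtn3, 0.906 to 1.28 for S100a8, 10.3 to 23.9 for Mmp8 and 27.7 to 124 for Csf3r.

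**Figure D4:**
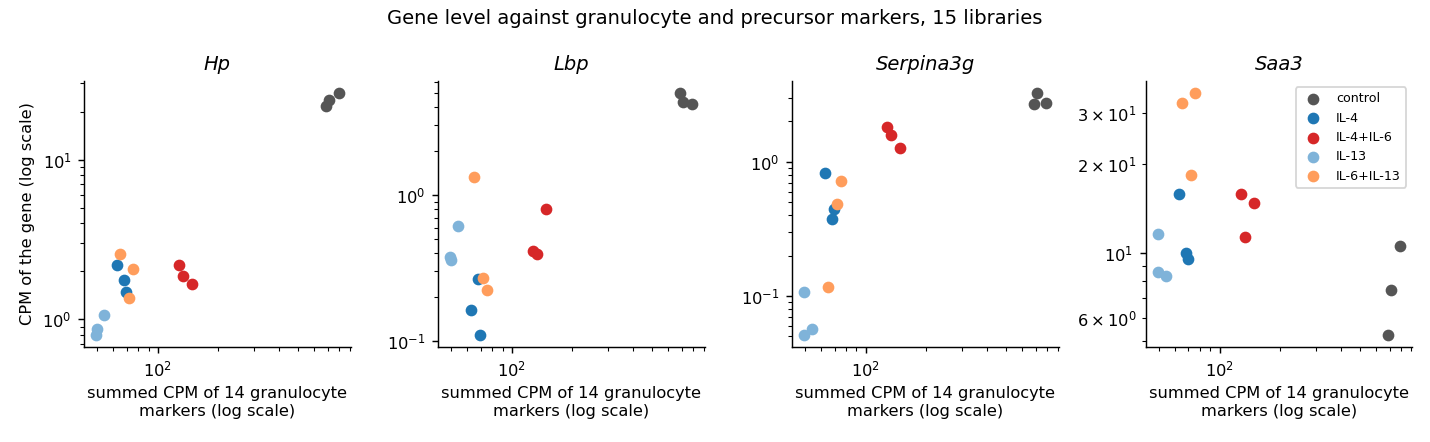
Level of Hp, Lbp, Serpina3g and Saa3 against the summed level of 14 granulocyte and precursor markers in each of the 15 libraries, both in TMM-scaled CPM on log axes. The 3 control libraries, at 690.0 to 792 CPM of markers, hold the highest levels of Hp, Lbp and Serpina3g and the lowest mean of Saa3, and Hp and Saa3 in IL-6+IL-13 lie above IL-13, as do their marker sums (64.7 to 75.5 against 49.5 to 54.0 CPM), while from IL-4 to IL-4+IL-6 the sums went from 63.0 to 69.5 up to 127 to 148 CPM without a call for Hp or Saa3. The sums rose through Csf3r. Without Csf3r, and then mostly Mmp8, they were lower in IL-6+IL-13 (13.2 to 13.6 CPM) than in IL-13 (21.7 to 24.9 CPM).

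On the scale of FPKM, which divides by gene length and allows levels of different genes to be compared, Hp was the most abundant of the 8 in control at 15.5 ± 1.28 FPKM (SD, n = 3), above 85.4% of the 22093 genes with a count there. Slpi and Saa3 followed at 3.28 ± 0.942 and 3.10 ± 1.03 FPKM and did not differ beyond their spread. In every cytokine group Saa3 was the most abundant, with 4.58 ± 1.35 FPKM in IL-4, 5.05 ± 0.768 in IL-4+IL-6, 3.73 ± 0.658 in IL-13 and 10.7 ± 3.28 in IL-6+IL-13. Serpina3n reached 0.705 ± 0.104 FPKM in IL-4+IL-6, beside 0.697 ± 0.0976 FPKM of Serpina3g, above 44.4% of detected genes. Slpi had 1.73 ± 0.527 FPKM in that group.

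Of the other acute-phase genes on a list of 32, 31 were in the matrix and 6 were tested, and Crp, Apcs, Fga and Alb of the liver response were at 0 counts in every library. Of the 6, 3 rose with IL-6 in both settings and none fell, next to 20.7% of all genes called higher and 18.7% lower with IL-4 and 12.1% and 13.5% with IL-13. The median log2 fold change was 0.24 with IL-4 and 1.00 with IL-13, against 0.038 and 0.005 over all genes. Lrg1, a secreted glycoprotein raised by IL-6 in liver, had 3, 6 and 7 counts in IL-4+IL-6 against 0, 1 and 0 in IL-4, a ratio of 17 (exact interval 2.63 to 711, log2 fold change 3.65, adjusted p = 0.00353). With IL-13 it went from 0, 0 and 1 to 10, 6 and 14 counts, a ratio of 31.2 (interval 5.19 to 1270, adjusted p = 0.00033). Control had 47, 43 and 44 counts, so that the level with IL-6 was still 7.9-fold below control in IL-4+IL-6 (interval 4.69 to 14.2) and 4.36-fold below it in IL-6+IL-13 (2.91 to 6.71), a description, since Lrg1 passed the filter through control. Fn1, the matrix protein fibronectin, rose by log2 fold changes of 2.05 ± 0.177 and 2.36 ± 0.179, to 2080 ± 573 CPM in IL-4+IL-6 and 1350 ± 145 CPM in IL-6+IL-13. Il1rn, the IL-1 receptor antagonist, rose by 0.53 ± 0.152 (adjusted p = 0.01) and 1.08 ± 0.142 (adjusted p = 1.49e-05). Lcn2, the iron-chelating protein of neutrophil granules, resembled Hp in control: it had 32.7 ± 1.85 CPM there and at most 0.279 CPM on average in a cytokine group, and IL-6 brought no call (adjusted p = 0.435 with IL-4 and 0.486 with IL-13).

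Among 10 whey acidic protein genes in the matrix, the family of Slpi, 2 were tested. Wfdc17, an abundant macrophage gene of this family, rose with IL-6 by log2 fold changes of 1.21 ± 0.142 with IL-4 (adjusted p = 2.1e-06) and 1.49 ± 0.143 with IL-13 (adjusted p = 3.43e-07), from 55.3 and 48.9 to 128 and 137 CPM. Wfdc21 had 30 to 60 counts in control, 0 in all IL-4 and IL-13 libraries and at most 3 in a library with IL-6. It was at least 43.0-fold lower in IL-4 and at least 43.6-fold lower in IL-13 than in control, against 3 counts over the group.

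Of 12 receptors and partners of the encoded proteins, 11 were tested, of which 4 rose and 4 fell when IL-6 was added to IL-4, and 5 rose and 1 fell with IL-13, next to 39.4% and 25.6% of all genes called in either direction. Cd163, the scavenger receptor for haptoglobin bound to hemoglobin, rose from 15.2 ± 0.842 to 205 ± 30.5 CPM with IL-4 (log2 fold change 3.76 ± 0.148, adjusted p = 2.01e-12) and from 23.9 ± 4.5 to 75.7 ± 8.36 CPM with IL-13 (1.67 ± 0.139, adjusted p = 6.13e-08). Hmox1, the heme-degrading enzyme of the same route, rose by log2 fold changes of 1.82 and 1.15 (adjusted p = 2.51e-11 and 1.51e-08). Cd14, the receptor to which Lbp passes LPS, fell with IL-4 (log2 fold change -1.12 ± 0.0897, adjusted p = 1.79e-08) and gave -0.19 with IL-13 (adjusted p = 0.123). Tlr2, which is known to sense serum amyloid A, fell in both (-1.34 and -1.01, adjusted p = 4.12e-07 and 1.27e-06).

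Of 9 proteases that serpin A3 proteins or Slpi can inhibit, 5 were tested. Ctsl, the cysteine protease cathepsin L, rose with IL-6 by log2 fold changes of 1.33 ± 0.0785 and 1.21 ± 0.0783 (adjusted p = 3.71e-10 and 2.44e-09), to 9650 ± 1160 CPM in IL-4+IL-6. None of the 5 fell, next to 20.7% of all genes called higher and 18.7% lower with IL-4 and 12.1% and 13.5% with IL-13. Elane, Ctsg and Mcpt8 averaged at most 0.237 CPM in a cytokine group, so that a fall with IL-6 could hardly be called for them. The neutrophil proteases Elane, Ctsg and Prtn3 had 24.4, 8.92 and 26.7 CPM in control and at most 0.58 CPM on average in a cytokine group.

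Among 16 transcription regulators of the acute-phase response 14 were tested, of which 7 rose and 3 fell when IL-6 was added to IL-4, and 6 rose and 2 fell with IL-13, next to 39.4% and 25.6% of all genes called in either direction. The medians were 0.31 and 0.37, against 0.038 and 0.005 over all genes. Socs3, the feedback inhibitor of gp130 signaling, rose by 6.25 ± 0.175 with IL-4 and 6.39 ± 0.182 with IL-13 (adjusted p = 3.99e-14 and 9.82e-14). Stat3 itself rose by 1.72 ± 0.0792 and 1.63 ± 0.0785, and Bcl3, a nuclear partner of NF-kB, by 1.90 ± 0.156 and 1.77 ± 0.149. Cebpd, a gene of the C/EBP factors, rose from 21.1 ± 1.58 to 140.0 ± 25.5 CPM with IL-4 (2.73 ± 0.145) and from 19.5 ± 2.11 to 44.6 ± 8.84 CPM with IL-13 (1.20 ± 0.145).

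Across the 15 libraries, the genes with the pattern most like each tested gene were taken by Pearson correlation of log2 CPM. The points share their group means, so r largely repeats the differences between groups. Nearest to Serpina3g were Pdlim1 (r = 0.923), Csf3r (r = 0.922) and Pecam1 (r = 0.914), which were likewise highest in control and second highest in IL-4+IL-6. Nearest to Serpina3n were Pex26 (r = 0.944), Rps6kc1 (r = 0.942) and Efl1 (r = 0.934), each highest in IL-4+IL-6. Nearest to Saa3 were Pmvk (r = 0.866) and the chemokine genes Ccl3 (r = 0.865) and Ccl6 (r = 0.864), each highest in IL-6+IL-13, where Ccl6 averaged 542 CPM. Nearest to Hp were Arf4 (r = 0.973), I830127L07Rik (r = 0.97) and Mmrn1 (r = 0.969), and nearest to Lbp were Tnfsf15 (r = 0.972), Adcy3 (r = 0.968) and Mylk (r = 0.947), all highest in control. Slpi had AI837181 (r = 0.877), Apoe (r = 0.869) and Prorsd1 (r = 0.868). By Spearman correlation, 3 of these 18 genes were again among the nearest 3. Between the 6 genes themselves r was highest for Hp with Lbp (0.87) and Hp with Serpina3g (0.76), while Saa3 with Serpina3n gave 0.07.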

How the data were processed

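RNA of 15 BMDM libraries (5 groups of 3) was sequenced. The authors deposited raw counts per gene for 53465 identifiers and FPKM values for 26080 genes, which the authors derived from these counts by gene length and library total (268061 values checked). The submitters' processing notes name CASAVA, Bowtie2 2.2.3, HISAT2 2.1.0, TopHat2, DESeq2 and the build GRCm38 without roles. The counting tool, annotation and strand setting are not given in the sources used here, so reads of overlapping or near-identical genes may be split or lost.

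Counts were filtered (filterByExpr, minimum count 10), scaled with TMM factors and tested with edgeR 4.0.16 in R 4.3.3 (quasi-likelihood F-test, 1 fit of all 15 libraries, no covariate, Benjamini-Hochberg over 13938 genes). SE is the log2 fold change divided by the square root of F. The scripts were tested on simulated data. CPM used the TMM factors, and log2 CPM a prior count of 2. Library totals were 17001352 to 18918686 (median 18278484). Intervals are exact (95%, conditional binomial on summed counts) and, like the floor of 3 counts over a group, cover counting error only. Alternatives were DESeq2 1.42.0, upper-quartile factors, other filters (none, or a minimum count of 50), the replicate number as a block, fewer groups, leaving out each library, Spearman correlation and FPKM. A fit without the control libraries and the granulocyte sum without Csf3r were added after seeing the data.

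The genes and lists were chosen with earlier results of these data known. Named were the 8 genes, in each list, marker lists included, the up to 4 genes called in a comparison of IL-6 with the largest change with IL-4, and the 3 genes most correlated with each tested gene. Serpina3b, Serpina3i, Lcn2, Wfdc21, the neutrophil proteases and single markers at 0 or high in control fall outside this rule and were chosen after their values were seen. Promoters and gene models came from RefSeq (GRCm38.p6) and GENCODE M21 (GRCm38), and bases inside a GENCODE gene were not printed.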

Additional observations from a re-analysis of the deposited data

Results flagged for a closer look

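Among the 8 genes and the genes named from the gene lists by rule, edgeR's test called the difference between the IL-6 effects with IL-13 and with IL-4 for 6. Genes named for a like pattern are not counted here, and other called genes of the lists are left unnamed. The difference was 1.35 ± 0.37 on the log2 scale for Saa3 (adjusted p = 0.0324), which rose with IL-6 in 3 of 3 libraries over every IL-13 library and overlapped with IL-4 in the other setting. The Saa3 call was lost without any 1 of 6 libraries (adjusted p = 0.0764 to 0.11) and with the replicate number as a block (0.0527). For Cd163 it was -2.09 ± 0.197 (adjusted p = 3.21e-06), with a rise in both settings that was larger with IL-4. For Hmox1 it was -0.67 (adjusted p = 0.00157), again between a larger and a smaller rise. For Cd14 it was 0.94 (adjusted p = 8.76e-05), with a call only in the setting with IL-4, where the level fell in 3 of 3 libraries. For Cebpd it was -1.53 ± 0.201 (adjusted p = 8.63e-05), with a rise in both settings. For Csf3r, a granulocyte marker, it was -0.55 ± 0.123 (adjusted p = 0.00864), with a rise in both settings that was larger with IL-4. Of all tested genes, 7.64% were called for this difference.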

How the results depend on the processing

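Of 26 called log2 fold changes of the 8 genes, 18 stayed past the threshold under every alternative that could be fitted. Over 890 values, 824 kept direction and side of the threshold, 33 lost the call, 20 gained it and 13 turned sign. With the minimum count of 50 Serpina3n is no longer tested, so the genes called higher went from 1 to 0 in IL-4 over control and from 2 to 1 in IL-4+IL-6 against both IL-4 and control. In IL-4 over control they were 2 with DESeq2, without a filter and with only the groups of the cytokine, through Saa3, and in IL-13 over control 1 without a filter. Hp gave -0.02 for IL-6 added to IL-4 with upper-quartile factors. Leaving out 1 library each time, the genes called higher ranged from 1 to 2 in IL-4 over control, in IL-4+IL-6 over control and in IL-6+IL-13 over control and from 0 to 2 for the difference between the IL-6 effects, and those called lower in IL-4+IL-6 over control from 2 to 4. All genes called lower for that difference ranged from 293 to 607. Log2 fold changes that reached 0 or turned sign then were Hp (-0.08 to 0.20) and Slpi (-0.42 to 0.06) for IL-6 added to IL-4, Serpina3n (-3.51 to 0.59), Lbp (-0.85 to 0.79) and Slpi (-0.16 to 0.41) in IL-6+IL-13 over IL-13, Serpina3n in IL-6+IL-13 over control (0.00 to 4.10) and Slpi for the difference (-0.06 to 0.51). The cause of these shifts was not tested. With the replicate number as a block, the genes called higher for the difference went from 1 to 0 (Saa3 1.31, adjusted p = 0.0527), and Slpi lost its call in IL-4 (adjusted p = 0.0514) and IL-6+IL-13 (0.0589) over control. The labels do not say whether the numbers pair libraries across groups. Deviations of libraries with the same number correlated at -0.276 to 0.163, with 3 of 30 above 0.1, against 7 of 60 for different numbers. With 3 libraries in a group, these correlations cannot exclude a pairing. Upper-quartile factors moved the share of higher among called genes from 52.6% to 39% for IL-6 added to IL-4 and from 57.8% to 68.3% for the difference, which was 68.5% without a filter, and the median of all genes in IL-4+IL-6 over control from -0.048 to -0.118. In FPKM, the 40 group levels of the 8 genes, each as a share of the gene's sum over groups, stayed within 1 SD of those in CPM. Depth limits Serpina3f, Orm1 and Serpina3n outside IL-4+IL-6, where a group held at most 19 counts.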
